A study of Callithrix jacchus with 4 samples.

Results

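Levels of 4 intermediate filament genes, *GFAP*, *VIM*, *NES* and *SYNM*, were followed across the annotated cell types of the primary visual cortex (V1) of adult common marmosets (*Callithrix jacchus*), with and without a focal ischemic injury. The 4 genes were taken by name from the tables of unique molecular identifiers (UMIs, each a captured transcript) of single-nucleus RNA sequencing. They were 4 of 32323 genes listed, of which 16383 were listed for both cohorts. *GFAP*, *VIM* and *SYNM* were among those listed for both, whereas *NES* was listed for the injured cohort only. The injured cohort comprised 3 libraries, each from 1 animal, collected 7 days after unilateral injections of the vasoconstrictor endothelin-1 (ET-1) into V1, and the dissected tissue held both the ischemic core and the penumbra. The control cohort was 1 library pooled from 3 uninjured animals. No transgene or genetic change was involved in either cohort. UMIs were summed per library and cell type for astrocytes (Astro), oligodendrocyte progenitor cells (OPC), vascular nuclei (Endo), oligodendrocytes (Oligo), microglia, excitatory neurons (ExN) and inhibitory neurons (InN), and levels were given as CPM, the UMIs of a gene per 1000000 UMIs of the sum.

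Intermediate filaments are the rope-like part of the cytoskeleton, assembled from long coiled-coil proteins whose makeup is characteristic of each cell type. *GFAP* encodes glial fibrillary acidic protein, the main filament of mature astrocytes and the usual marker of their reaction to injury. *VIM* encodes vimentin, the filament of endothelial cells, fibroblasts, microglia and immature glia, which forms filaments on its own or together with GFAP. *NES* encodes nestin, a filament of neural progenitors and of growing blood vessels, and *SYNM* encodes synemin, a large filament protein that also anchors others. Nestin and synemin do not assemble by themselves and need a partner such as vimentin.

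The libraries held 7500, 12527 and 9510 nuclei in the injured cohort and 8610 in the control, with 22832703 to 48722394 UMIs each. The median nucleus held 3531 to 4504.5 UMIs in the injured libraries against 2117 in the control, and the gap was wider in OPC, at 2912 to 5628 against 962. Nuclei isolation, sorting, sequencing platform and filtering differed between the cohorts as a whole, so these differences cannot be told apart from injury. The injured animals also underwent a craniotomy, removal of dura and injections into the cortex, whereas the controls were uninjured. Effects of the surgery therefore cannot be told apart from those of ischemia. The spread in each test came from the 3 injured libraries and was assumed for the single control library, and 15 to 27 cell barcodes were shared by each pair of libraries. Markers of astrocytes, OPC, oligodendrocytes, microglia, excitatory neurons and inhibitory neurons were each highest in the type of that name in all 4 libraries. This is no check of the labels, because the study assigned the types by these same markers. *GFAP* was one of the astrocyte markers, so its levels in different types are described without a test.

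The nuclei annotated Endo were a mixture whose makeup differed between the cohorts. In the injured libraries, 336, 686 and 712 nuclei lay in clusters led by endothelial markers such as *FLT1*, a receptor for vascular growth factor, and 141, 249 and 315 lay in a cluster led by fibroblast genes such as *COL1A2* and *DCN*. A further 544, 800 and 661 lay in 1 cluster led by neither, with a median of 1150 UMIs, *FLT1* at 21.6 CPM against 2207 CPM in the larger endothelial cluster, and *VIM* itself among its leading genes together with *HBB*, *SPP1*, *NEFM* and *NEFL*. The larger endothelial cluster also had *RGS5* among its leading genes, at 989 CPM, with *PDGFRB* at 312 CPM and *NOTCH3* at 203 CPM. These are markers of pericytes and smooth muscle, other cells of the vessel wall. The further listed markers of those cells, *ACTA2* and *MYH11*, stood at 48.2 and 37.2 CPM. Endothelial and pericyte nuclei were not told apart in that cluster. In the control, 155 of 181 nuclei lay in a fibroblast cluster and 26 in an endothelial one. In Endo the 6 vascular markers summed to 5820 to 6845 CPM in the injured libraries, and the 5 listed for the control to 1053 CPM there. The marker not listed for the control, *CLDN5*, stood at 3467 CPM in the larger injured endothelial cluster, so these sums are not like for like. The 5 fibroblast markers summed to 1198 to 2137 CPM, and the 4 listed for the control to 5257 CPM there. Endo values are therefore given both for the whole label and for these parts.

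*GFAP* was higher in injured astrocytes. It stood at 523, 442 and 563 CPM in injured replicates 1, 2 and 3 (animals F1619, F1565 and F1711) against 148 CPM in the control. All 3 injured libraries lay above the control and within 1.27-fold of each other. The injured mean was 509.5 ± 61.7 CPM (SD, n = 3), 3.44-fold the control (2.90 to 4.13 at the 95% counting limits of the 128 control UMIs). The log2 fold change fitted across all genes was 1.90 (SE 0.24, adjusted p = 0.00528, edgeR's quasi-likelihood test with Benjamini-Hochberg adjustment). A gene was called when its adjusted p was below 0.01, its ln fold change was over 0.25 in size and a UMI was found in at least 10% of nuclei of either cohort. By that rule 1.12% of astrocyte genes tested were called higher, and for 36.0% all 3 injured libraries lay above the control. The call for *GFAP* was lost when only nuclei with at most 2500 genes were kept (log2 1.58, adjusted p = 0.0156) and without injured replicate 1 (log2 1.89, adjusted p = 0.0129). In the same sums the 5 other astrocyte markers of the list stood at 7129 to 8630.4 CPM in the injured libraries against 14565 CPM in the control. The list did not go one way. *SLC1A2* was at 3457, 4862 and 4096 CPM against 12215 CPM and *ALDH1L1* at 525, 525 and 415 CPM against 584 CPM. *SLC1A3* was at 2428, 2161 and 3302 CPM against 1399 CPM and *AQP4* at 392, 456 and 515 CPM against 95.9 CPM. Excitatory neuron markers stood at 977 to 1072 CPM against 2093 CPM. Their part in the *GFAP* difference was not tested.

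The share of astrocytes in which *GFAP* was detected moved with it. At least 1 *GFAP* UMI was found in 67.2%, 52.7% and 73.8% of injured astrocytes and in 11.4% of control astrocytes. With each nucleus thinned to 1000 UMIs the shares were 36.7%, 31.7% and 38.9% against 8.56%, which left out 4, 23 and 9 injured nuclei and 232 of 594 control nuclei. In excitatory neurons, which should lack the gene, the thinned shares were 0.377%, 0.221% and 0.467% against 0.0582%.

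*GFAP* in control astrocytes came mostly from a small cluster. A control cluster of 66 nuclei, 11.1% of the control astrocytes, held 99 of the 128 *GFAP* UMIs and stood at 1191 CPM, whereas the main cluster of 500 nuclei stood at 41.3 CPM and the remaining 28 nuclei at 15.5 CPM. *GFAP* was the leading gene of the small cluster, ahead of *MYOC* and *MMD2*, so its high level there belongs to how the cluster was defined. The injured cluster with 2003 of the astrocytes stood at 527 CPM. Control astrocytes were shallower, with a median of 1183 UMIs against 2903 to 5279.5.

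**Figure D1:**
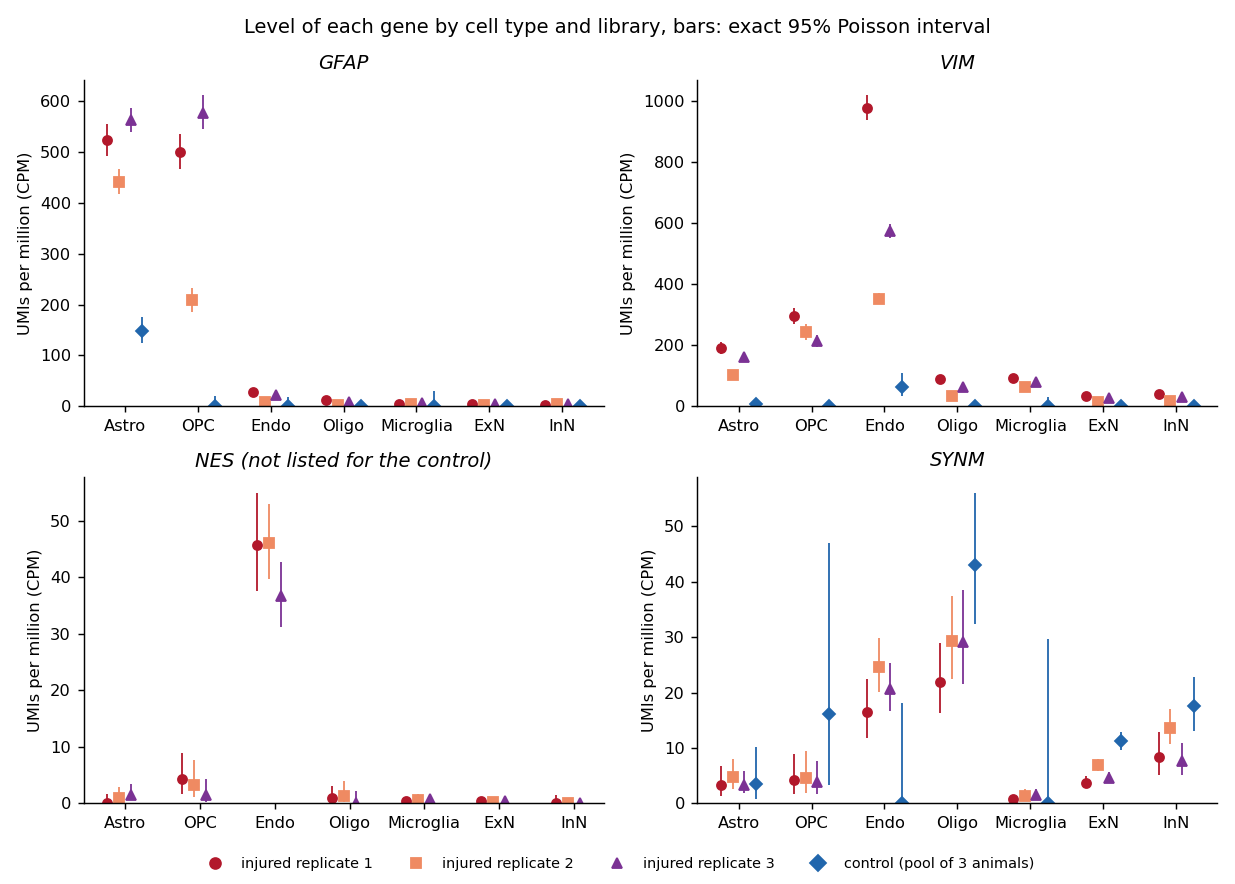
Level of *GFAP*, *VIM*, *NES* and *SYNM* (CPM, linear axes that differ between panels) by annotated cell type, 1 point per library, with the 3 injured libraries and the control library in different colours; bars are exact 95% Poisson intervals, which cover counting error only. *GFAP* in injured OPC (208 to 578 CPM) lies beside that in injured astrocytes (442 to 563 CPM), and *VIM* is highest in the nuclei annotated Endo.

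OPC carried *GFAP* in every injured library and in no control nucleus. OPC are the dividing precursors of oligodendrocytes, marked by *PDGFRA*, the receptor for platelet-derived growth factor, and are usually counted as free of GFAP. *GFAP* stood at 501, 208 and 578 CPM in the injured libraries, and 0 UMIs were found in the 171 control OPC. All 3 injured libraries lay above the control, as in 41.4% of the genes tested in OPC, and injured replicate 2 was well below the other two. Because the control sum was shallow, a count of 0 there still allowed a level of up to 16.05 CPM (3 UMIs), and the injured mean of 429 ± 195 CPM (SD, n = 3) was 26.7-fold that floor. The fold would be smaller in like nuclei. Every control OPC had at most 2500 genes, and injured OPC of that kind stood at only 156, 130 and 215 CPM. The adjusted p was 0.0478 (edgeR), so *GFAP* was not called in OPC, where 0.061% of the genes tested were called higher. In the fit of nuclei with at most 2500 genes alone the adjusted p was 0.00364 (edgeR) and *GFAP* was called higher. That fit called 25 OPC genes in all. Without injured replicate 2 the adjusted p was 5.76e-38 and without injured replicate 3 it was 8.64e-06, and both would be called, whereas without injured replicate 1 it was 0.122. Over all OPC genes these fits called 820, 293 and 0 genes, beside 8 with all 3 libraries. The calls thus changed over all genes and not for *GFAP* alone.

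*GFAP* was detected in 51.1%, 25.3% and 49.9% of injured OPC. At 1000 UMIs a nucleus the shares were 30.8%, 12.5% and 27.7%, against 0 of the 80 control OPC deep enough to be thinned, which allows a share of up to 3.75%. Of all *GFAP* UMIs in the injured libraries, astrocytes held 61.9% on average (52.7% to 73.3%) and OPC 29.8% (18.1% to 38.3%).

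Within libraries, how *GFAP* in OPC compared with astrocytes depended on which nuclei were taken. Over all nuclei its log2 level in astrocytes minus OPC was 0.06 and −0.04 in injured replicates 1 and 3 and 1.09 in replicate 2, a mean of 0.37 ± 0.62 (SD, n = 3), which is within the spread between libraries. In nuclei with at most 2500 genes *GFAP* was lower in OPC in all 3 libraries, at 156, 130 and 215 CPM against 440.4, 438 and 560 CPM in astrocytes. OPC as a whole held less of other astrocyte transcripts than of *GFAP*, relative to astrocytes. *GFAP* in OPC was at 95.8%, 47.1% and 103% of its astrocyte level, whereas *AQP4*, the astrocyte water channel, was at 2.83%, 2.0% and 3.11%. *ALDH1L1*, a folate enzyme used as a pan-astrocyte marker, was at 1.12% to 1.53%, *GJA1*, a gap junction protein, at 3.77% to 5.76%, and *SLC1A3*, a glutamate transporter, at 9.05% to 14.5%. The 5 astrocyte markers other than *GFAP* in the list for that type summed to 804, 633 and 776 CPM in injured OPC and to 1091 CPM in control OPC, but the list did not go one way. *SLC1A2*, the other main glutamate transporter of astrocytes, was at 325, 360.2 and 355 CPM against 942 CPM, whereas *SLC1A3* was at 352, 199 and 299 CPM against 102 CPM and *AQP4* at 11.1, 9.14 and 16 CPM against 0 UMIs. The part of astrocyte RNA in the *GFAP* of OPC was not tested.

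**Figure D2:**
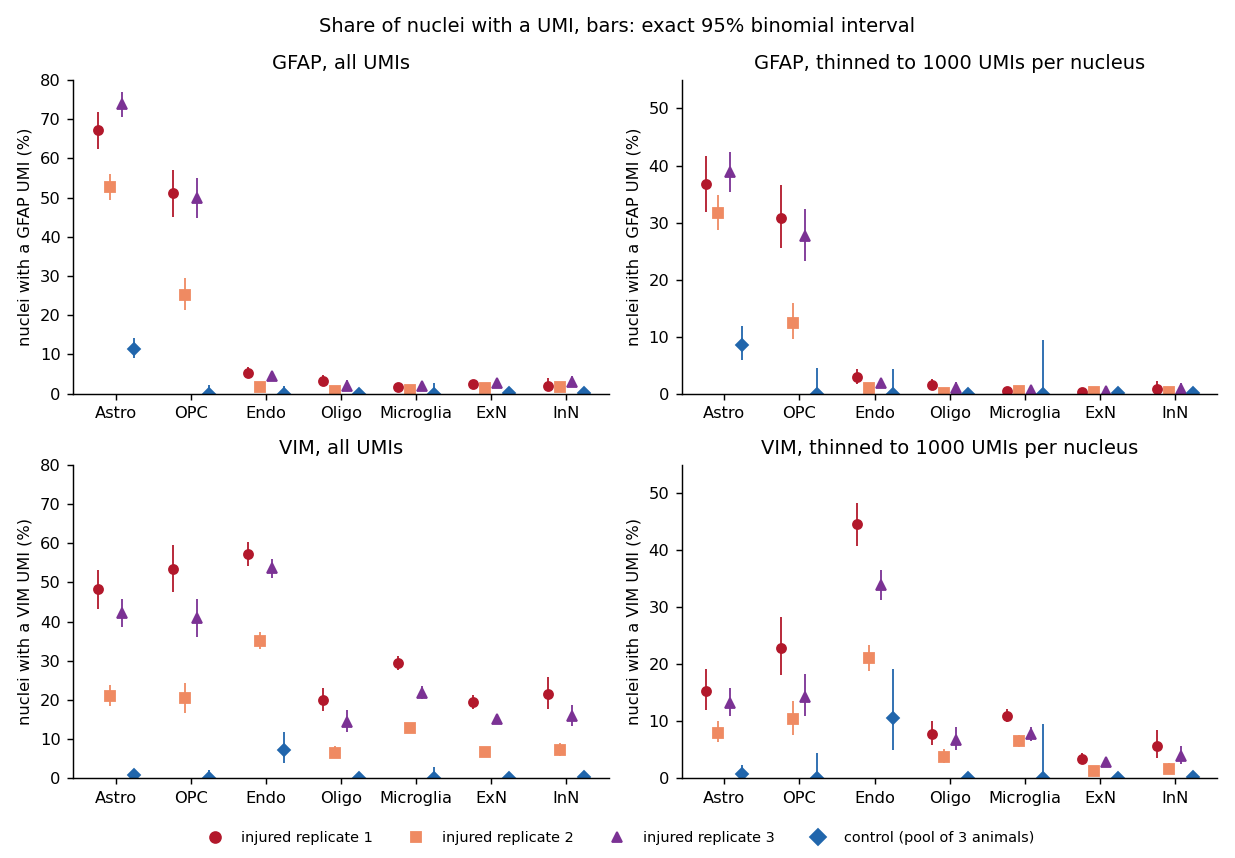
Share of nuclei with at least 1 UMI of *GFAP* and *VIM* in percent, by cell type and library, from all UMIs (left) and after each nucleus was thinned to 1000 UMIs (right); bars on the points are 95% exact binomial intervals, which cover counting error only. In OPC the thinned *GFAP* share was 12.5% to 30.8% in the injured libraries and 0% in the control.

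*GFAP* in OPC went with the number of genes detected in the nucleus. In OPC with at most 2500 genes it stood at 156, 130 and 215 CPM, and in OPC with more than 2500 genes at 590.4, 366 and 726 CPM. The deeper OPC were higher in all 3 libraries, by 3.79-, 2.81- and 3.37-fold (mean log2 1.72 ± 0.22, SD, n = 3). In astrocytes the same split gave 1.27-, 1.04- and 1.01-fold (mean log2 0.14 ± 0.18). The deeper OPC numbered 185, 77 and 204, and a *GFAP* UMI was found in 67.0%, 64.9% and 76.0% of them. They were 77 of the 451 OPC of injured replicate 2, the library with the lowest *GFAP*. All 171 control OPC had at most 2500 genes, so the deeper OPC had no control counterpart. Of the astrocyte markers, *SLC1A3* was also higher in the deeper OPC of all 3 libraries, by 1.71-, 1.47- and 1.5-fold. *GJA1* was 2.07- and 2.03-fold higher in injured replicates 1 and 2 and 0.448-fold in replicate 3. *ALDH1L1* was at 6.97, 9.90 and 7.52 CPM in the deeper OPC and at 11.99, 3.89 and 0 CPM in the others, and *AQP4* was at 11.6, 5.94 and 15.7 CPM in the deeper OPC and at 9.0, 10.7 and 16.7 CPM in the others. The part of nuclei merged with astrocytes in these values was not tested. *PDGFRA* was lower in the deeper OPC, at 0.534-, 0.450- and 0.612-fold of its level in the others.

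**Figure D3:**
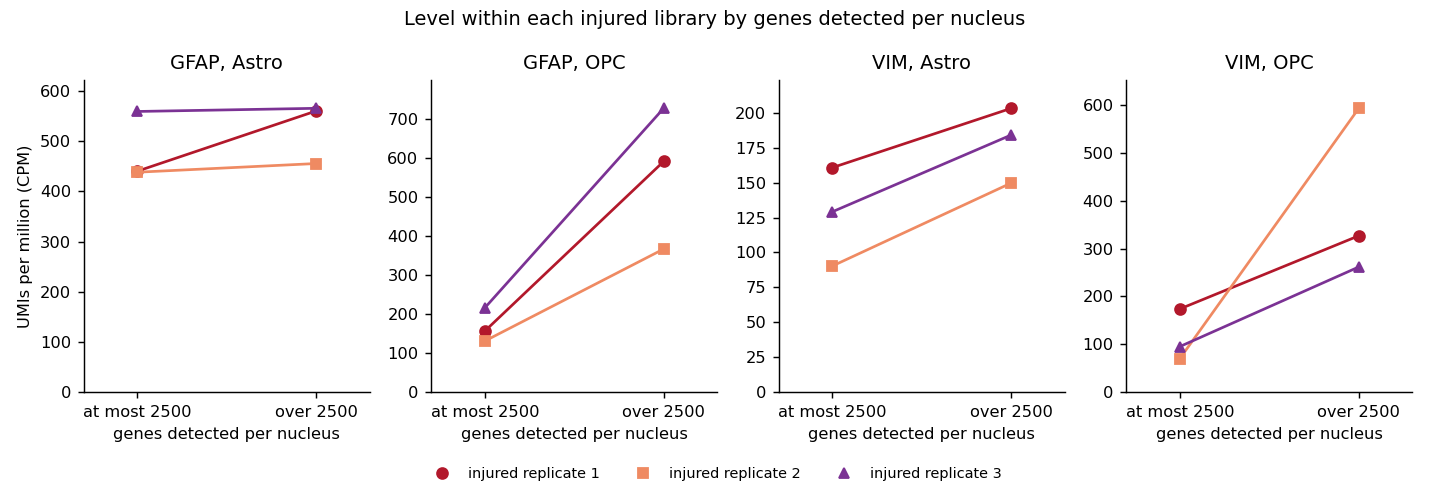
Level of *GFAP* and *VIM* (CPM) in injured astrocytes and OPC with at most 2500 and with more than 2500 genes detected, 1 line per injured library. *GFAP* is 2.81- to 3.79-fold higher in the deeper OPC of each library, and 1.01- to 1.27-fold higher in the deeper astrocytes. No control OPC had more than 2500 genes.

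At a matched depth, injured OPC with a *GFAP* UMI held *PDGFRA*, *PCDH15* and *OLIG2* at lower shares than those without, *AQP4*, *ALDH1L1* and *GJA1* at or near 0, and *SLC1A3* at higher shares. With nuclei thinned to 1000 UMIs, 86, 54 and 108 OPC held a *GFAP* UMI and 193, 379 and 282 did not. *PDGFRA* was detected in 18.5% to 37.0% of those with *GFAP* and in 46.1% to 47.2% of those without, and *PCDH15*, a protocadherin of OPC, in 69.8% to 79.6% against 83.7% to 85.8%. *OLIG2*, a transcription factor of the oligodendrocyte lineage, was detected in 2.33% to 5.56% against 14.5% to 17.1%. *SOX10*, another factor of the lineage, was detected in 5.81% to 12.96% against 6.74% to 10.8%, and was higher with *GFAP* in 2 of 3 libraries. Before thinning, *PCDH15* was detected in more of the OPC with *GFAP*, 95.2% to 96.5% against 89.6% to 94.1%, and *PDGFRA* in 69.3% to 76.5% against 74.8% to 84.9%. Before thinning the astrocyte markers did not all go one way. *SLC1A3* was found in 56.1% to 69.7% against 32.3% to 54.7% and *ALDH1L1* in 2.63% to 4.14% against 0.995% to 2.88%, each higher with *GFAP* in all 3 libraries. *AQP4*, in 2.63% to 9.5% against 2.49% to 4.32%, and *SLC1A2*, in 62.5% to 66.2% against 50.7% to 64.7%, were higher in 2 of them, and *GJA1*, in 3.51% to 9.5% against 3.56% to 11.4%, was higher in 1. In the thinned nuclei *AQP4* was detected in 0% to 2.78% of the OPC with *GFAP* against 30.9% to 39.0% of injured astrocytes, *ALDH1L1* in none of them against 32.3% to 39.5%, and *GJA1* in 0% to 1.85% against 16.6% to 28.4%. *SLC1A3* was detected in 14.8% to 29.1% of OPC with *GFAP*, in 12.7% to 20.7% of those without and in 80.2% to 89.4% of astrocytes, and was higher with *GFAP* in all 3 libraries. *SLC1A2* was detected in 21.3% to 27.8%, 21.8% to 30.1% and 70.9% to 79.7% of these nuclei. *CD44*, a hyaluronan receptor named here after its values were seen, was detected in 16.7% to 37.0% of OPC with *GFAP* and in 7.77% to 11.6% of those without. OPC with a *GFAP* UMI were the deeper ones before thinning, with medians of 6636.5, 4017.5 and 6695.5 UMIs against 5357, 2923 and 4534.5.

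**Figure D4:**
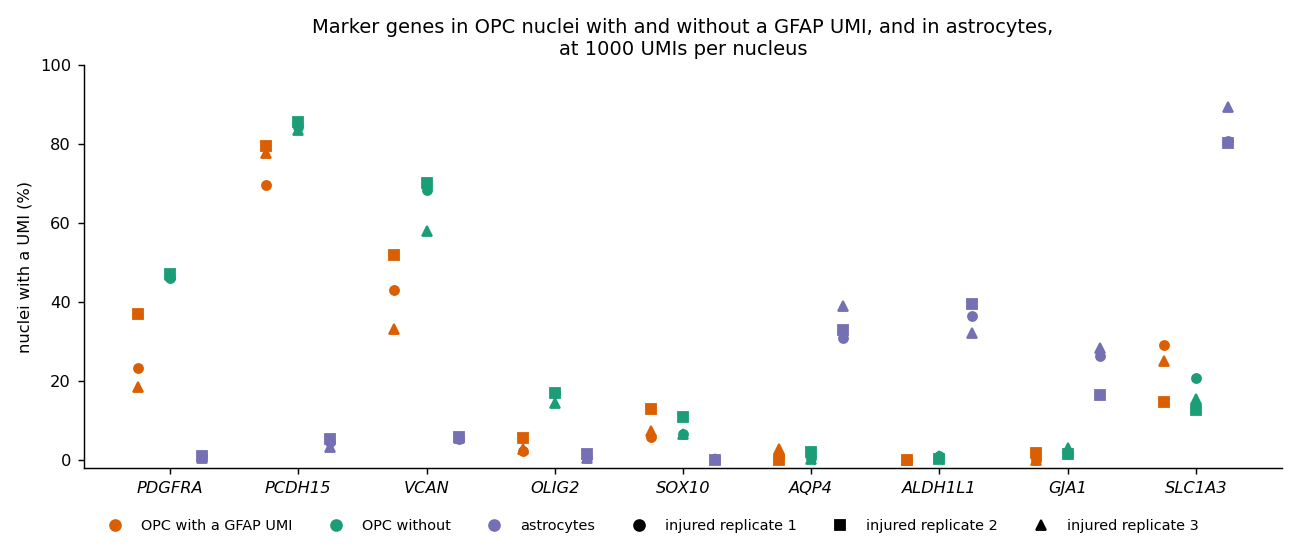
Share of nuclei (percent, thinned to 1000 UMIs) with a UMI of OPC and astrocyte markers in injured OPC with and without a *GFAP* UMI and in injured astrocytes, 1 point per library. *AQP4* and *ALDH1L1* are at 2.78% or less in OPC with *GFAP* and at 30.9% or more in astrocytes, and *OLIG2* is lower in OPC with *GFAP* than without. The markers do not all go this way. *SLC1A3* is at 14.8% to 29.1% in OPC with *GFAP*, above those without in each library, and *SOX10* overlaps (5.81% to 12.96% against 6.74% to 10.8%).

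Outside astrocytes and OPC, *GFAP* was low. In Endo it stood at 27.1, 8.11 and 21.1 CPM against 0 UMIs in the control, a mean at least 1.28-fold higher than a count of 0 allows (adjusted p = 0.215). The cluster led by neither marker list stood highest in replicates 1 and 3, at 56.8, 8.60 and 55.1 CPM, beside 11.6, 6.59 and 11.4 CPM in the endothelial clusters and 10.8, 11.9 and 12.6 CPM in the fibroblast cluster. It stood at 11.4, 3.20 and 8.32 CPM in oligodendrocytes and at 3.98, 3.76 and 5.76 CPM in microglia, both with 0 control UMIs, and at 3.20, 3.66 and 5.20 CPM in inhibitory neurons against 0.648 CPM. In excitatory neurons it stood at 3.54, 2.54 and 4.55 CPM against 0.293 CPM from 5 UMIs. There the adjusted p was 0.00829 (log2 3.67), but a UMI was found in at most 2.82% of nuclei, so the gene was not called, and the adjusted p was 0.0592 (log2 2.57) with thinned nuclei, 0.0314 in nuclei with at most 2500 genes, 0.0115 with library size alone and 0.0390 without injured replicate 1. Injured replicate 2 was the lowest injured library in 6 of the 7 types.

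*VIM* was higher in injured astrocytes, from a control level close to 0. It stood at 190.1, 103 and 161 CPM in the injured libraries against 8.09 CPM from 7 control UMIs. Injured replicate 2 was lowest and all 3 lay above the control, as in 36.0% of the genes tested in astrocytes. The mean of 151 ± 44.2 CPM (SD, n = 3) was 18.7-fold the control (9.08 to 46.5 at the counting limits), and *VIM* was called higher (log2 4.32, SE 0.53, adjusted p = 0.00482, edgeR). It was called in all 10 alternative fits, and 1.12% of astrocyte genes were called higher in the main fit. A *VIM* UMI was found in 48.3%, 21.1% and 42.1% of injured astrocytes and in 1.01% of control astrocytes, and at 1000 UMIs a nucleus in 15.3%, 8.04% and 13.3% against 0.829%. Markers of vascular nuclei, which hold the most *VIM*, summed to 313 to 451 CPM in injured astrocytes for 6 listed, against 124 CPM for the 5 listed in the control. In the main injured and control astrocyte clusters *IGFBP7* was at 295 against 71.9 CPM and *SLC2A1* at 48.8 against 33.7 CPM. There *FLT1* was at 11.6 against 7.65 CPM, *VWF* at 9.28 against 6.12 CPM and *PECAM1* at 8.70 against 6.12 CPM. Microglial markers summed to 202 to 302 CPM for 5 listed against 90.2 CPM for 4. Fibroblast markers summed to 70.0 to 91.3 CPM for 5 listed against 80.9 CPM for 4. Their part in the *VIM* of astrocytes was not tested.

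*VIM* was not detected in control OPC and was present in injured OPC of every library. It was at 296, 243 and 213 CPM in the injured libraries and at 0 UMIs in the control. All 3 injured libraries lay above the control, as in 41.4% of the genes tested in OPC, where 0.061% were called higher. The mean of 251 ± 41.6 CPM was 15.6-fold the floor of 3 UMIs, with an adjusted p of 0.0106 (edgeR) that just missed the threshold. The fold would be smaller in like nuclei, since every control OPC had at most 2500 genes and injured OPC of that kind held less *VIM*. Without injured replicate 2 the adjusted p was 7.89e-20, without injured replicate 3 it was 1.15e-06 and without injured replicate 1 it was 0.0602. These are the fits that called 820, 293 and 0 OPC genes in all. A *VIM* UMI was found in 53.5%, 20.4% and 40.9% of injured OPC, and at 1000 UMIs a nucleus in 22.9%, 10.4% and 14.4%. Over all nuclei, OPC exceeded astrocytes in all 3 libraries, by 0.64, 1.23 and 0.41 on the log2 scale (mean 0.76 ± 0.43). In nuclei with at most 2500 genes the order turned in injured replicates 2 and 3, with 174, 70.1 and 95.2 CPM in OPC against 161, 90.3 and 129 CPM in astrocytes. In injured replicate 2 the 77 OPC with more than 2500 genes stood at 594 CPM.

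*VIM* was highest in the nuclei annotated Endo, where vimentin is the standing filament of endothelial cells and fibroblasts. It stood at 979, 352 and 575 CPM in the injured libraries against 63.7 CPM from 13 control UMIs. All 3 injured libraries lay above the control, as in 47.8% of the genes tested in Endo, and the mean of 635 ± 318 CPM was 9.97-fold the control (5.83 to 18.7 at the counting limits). The adjusted p was 0.0107 (log2 3.44, SE 0.69), so *VIM* was not called, where 4.19% of genes were called higher. Leaving out the cluster led by neither marker list, a choice made after seeing the data, gave log2 3.68 (SE 0.62) and an adjusted p of 0.00525, which was called, and leaving out any 1 injured library also gave a call. With nuclei thinned to 1000 UMIs the change was smaller and not called (log2 2.76, adjusted p = 0.0422).

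Injured *VIM* was found in every part of Endo, at levels that varied between libraries. Endothelial clusters stood at 1113, 514 and 681 CPM against 48.6 CPM from 1 control UMI in 26 nuclei, a ratio of 15.8 with a counting interval of 2.84 to 625 (adjusted p = 0.0693). Fibroblast clusters stood at 921, 246 and 453 CPM against 65.4 CPM from 12 control UMIs, 8.26-fold (4.73 to 15.98), with log2 3.08 (SE 0.83) and an adjusted p of 0.0901. A *VIM* UMI was found in 88.1%, 62.7% and 72.1% of the injured nuclei of the endothelial clusters. The cluster led by neither stood at 833, 102 and 437 CPM, and no control nuclei lay in such a cluster. In injured replicate 2 this was close to the 103 CPM of astrocytes. *VIM* was among the leading genes of that cluster, so its level there belongs in part to how the cluster was defined. Endothelial clusters exceeded fibroblast clusters in all 3 injured libraries (mean log2 difference 0.64 ± 0.40).

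*VIM* was also detected in the remaining types of the injured cohort. In microglia it stood at 91.6, 63.9 and 79.1 CPM against 0 UMIs (at least 3.24-fold, adjusted p = 0.0549). In microglia 0.0% of the genes tested were called in edgeR, although 2857 had an unadjusted p below 0.05 and DESeq2 called 297, and all 3 injured libraries were above the control in 49.4%. In oligodendrocytes it stood at 87.8, 32.9 and 63.0 CPM against 0 UMIs (at least 26.1-fold, adjusted p = 0.0163), where 0.619% of genes were called higher and 32.9% had all injured libraries above. Without injured replicate 2 or 3 the adjusted p in oligodendrocytes was 8.39e-04 or 0.00892, and the gene would be called, whereas without injured replicate 1 it was 0.0191.

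*VIM* was called higher in both neuron types at a low level. In excitatory neurons it stood at 32.5, 13.1 and 26.9 CPM against 0.410 CPM from 7 UMIs, 59.0-fold (28.6 to 147), with log2 5.95 (SE 0.78, adjusted p = 0.00436). The call was lost without injured replicate 1 (adjusted p = 0.0213). It was also lost, in both neuron types, in thinned nuclei and in nuclei with at most 2500 genes, where fewer than 10% held a *VIM* UMI. In inhibitory neurons it stood at 39.6, 15.8 and 31.7 CPM against 0.973 CPM from 3 UMIs, a ratio of 29.8 with a counting interval of 10.2 to 145 (adjusted p = 0.00390). Called higher were 2.6% of genes in excitatory and 2.2% in inhibitory neurons, and all injured libraries lay above in 31.3% and 30.8%. At 1000 UMIs a nucleus, *VIM* was detected in 3.45%, 1.24% and 2.87% of excitatory neurons against 0.0194% in the control. Injured replicate 2 was the lowest injured library in both, as in astrocytes, oligodendrocytes, microglia and Endo, and the part of free RNA from *VIM*-rich nuclei of the same library in the neuronal values was not tested. Astrocytes exceeded excitatory neurons by 2.55, 2.98 and 2.58 on the log2 scale.

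**Figure D5:**
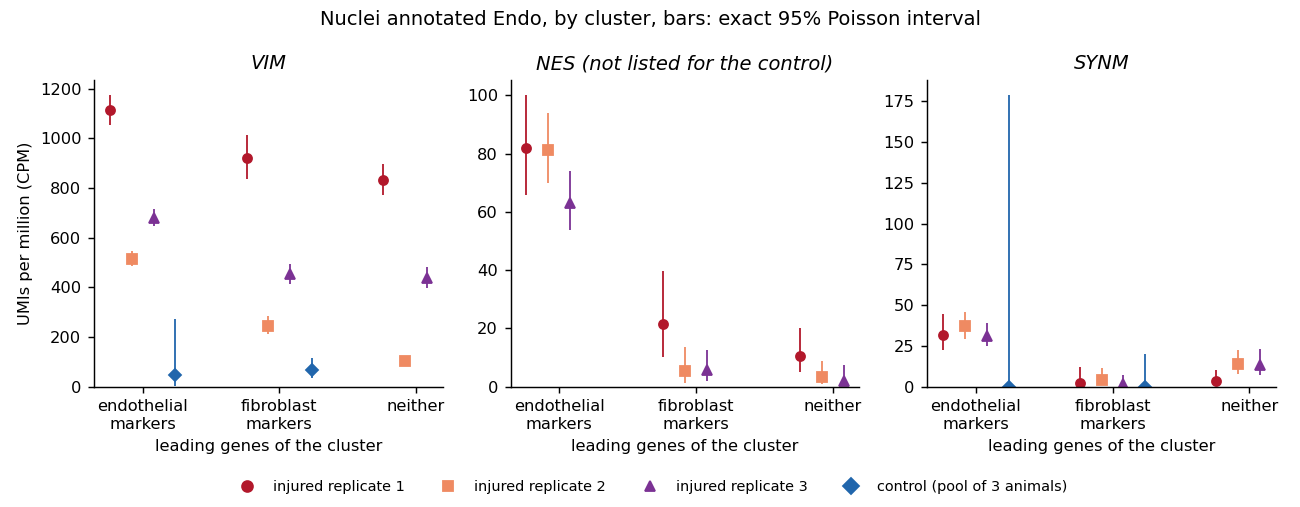
Level of *VIM*, *NES* and *SYNM* (CPM) in the nuclei annotated Endo, split into clusters led by endothelial markers, by fibroblast markers and by neither, 1 point per library with exact 95% Poisson intervals as bars; the control has no value for *NES*. *NES* at 63.2 to 81.8 CPM and *SYNM* at 31.4 to 36.9 CPM lie in the endothelial clusters. *VIM* is found in all 3 parts of the injured libraries, with its lowest value, 102 CPM, in the cluster led by neither.

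*NES*, with values for the injured cohort only, was highest in the clusters led by endothelial markers, the larger of which also held pericyte genes. In Endo as a whole it stood at 45.6, 46.0 and 36.6 CPM and was detected in 8.62%, 8.82% and 7.94% of nuclei. In the endothelial clusters it stood at 81.8, 81.3 and 63.2 CPM (21.4%, 21.4% and 18.0% of nuclei), in the fibroblast cluster at 21.6, 5.28 and 5.80 CPM, and in the cluster led by neither at 10.7, 3.44 and 2.08 CPM. The endothelial clusters were the highest in every library, by a mean of 3.1 ± 1.05 on the log2 scale over the fibroblast cluster. Endo held 87.6% of all *NES* UMIs (85.4% to 90.2%). Glia held little, with 4.31, 3.26 and 1.45 CPM in OPC and 0, 1.03 and 1.57 CPM in astrocytes, and inhibitory neurons held 0 UMIs in all 3 libraries. With genes not listed for the control counted as 0 there, *NES* in Endo had an adjusted p of 0.00948 and was not called, since a UMI was found in under 10% of nuclei. Whether the control truly held 0 UMIs is not given in the sources used here. The *NES* levels of OPC and astrocytes rest on 15 and 9 UMIs in their main clusters.

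*SYNM* did not pass the test in any cell type. In oligodendrocytes, its highest type in the control, it stood at 22.0, 29.2 and 29.1 CPM against 43.1 CPM from 55 UMIs (log2 −0.59, SE 0.28, adjusted p = 0.206). In excitatory neurons it stood at 3.70, 6.89 and 4.66 CPM against 11.2 CPM (log2 −1.0, SE 0.35, adjusted p = 0.0797), and in inhibitory neurons at 8.41, 13.6 and 7.67 CPM against 17.5 CPM (log2 −0.68, SE 0.37, adjusted p = 0.222). In these 3 types all injured libraries lay below the control, as did 43.5%, 47.5% and 44.9% of all genes tested in them. In astrocytes it stood at 3.27, 4.78 and 3.39 CPM against 3.47 CPM, with the control inside the injured range (adjusted p = 0.860), and in OPC at 4.31, 4.57 and 3.88 CPM against 16.05 CPM from only 3 UMIs (adjusted p = 0.329).

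In Endo, *SYNM* followed *NES* into the endothelial clusters. It stood at 16.4, 24.6 and 20.7 CPM in Endo against 0 UMIs in the control, where a count of 0 allows up to 14.7 CPM (adjusted p = 0.0491). In the endothelial clusters it stood at 32.0, 36.9 and 31.4 CPM and in the fibroblast cluster at 2.16, 3.96 and 1.93 CPM, a difference of 3.71 ± 0.43 on the log2 scale seen in all 3 libraries. The control held only 26 nuclei in an endothelial cluster. Within every library, *SYNM* in oligodendrocytes exceeded inhibitory neurons, which exceeded excitatory neurons, by 1.47 ± 0.41 and 0.96 ± 0.23 on the log2 scale over the injured libraries and by 1.3 and 0.64 in the control.

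The change with injury was compared directly between astrocytes, OPC and Endo. The change of *GFAP* was not called different between astrocytes and OPC (adjusted p = 0.112, unadjusted p = 7.18e-04), where 0.0956% of genes were called. Without injured replicate 1 the adjusted p was 0.00278 and without injured replicate 2 it was 3.38e-07. Without injured replicate 3 it was 0.112 and in nuclei with at most 2500 genes 0.0805, neither of them called. The 3 leave-outs called 43, 184 and 6 genes in all, beside 12. With control OPC set to 3 UMIs, the injured-to-control ratio of OPC was 7.76 times the astrocyte ratio of 3.44. This is no lower bound, since the counting limits of the astrocyte ratio reach 4.13. *VIM* was not called different between astrocytes and OPC (adjusted p = 0.518). Between astrocytes and Endo the adjusted p was 0.578 for *GFAP*, 0.496 for *VIM* (log2 0.91, SE 0.69, larger in astrocytes) and 0.165 for *SYNM*, with 1.79% of genes called. Between OPC and Endo it was 0.269 for *VIM* and 0.0873 for *SYNM*, with 0.443% called, and *GFAP* allowed no estimate since both control sums were at 0.

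*GFAP* and *VIM* were next counted in the same nucleus at 1000 UMIs. Both were found in 5.28%, 2.46% and 4.89% of injured astrocytes, against 5.62%, 2.55% and 5.15% when the separate shares are multiplied. *VIM* was found in 14.4%, 7.75% and 12.6% of astrocytes with *GFAP* and in 15.9%, 8.17% and 13.7% of those without, which was slightly lower in all 3 libraries. Before thinning it was higher in all 3, at 48.9%, 23.3% and 45.5% of astrocytes with *GFAP* against 47.0%, 18.6% and 32.5% of those without. In OPC both were found in 9.68%, 2.31% and 5.64%, against products of 7.07%, 1.296% and 3.98%. *VIM* was found in 31.4%, 18.5% and 20.4% of OPC with *GFAP* and in 19.2%, 9.23% and 12.1% of those without, which was higher in all 3 libraries. The OPC with *GFAP* were also the deeper ones before thinning.

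Of 13 other intermediate filament genes, 5 were tested in astrocytes and 1 was called higher, *LMNA*, which encodes the nuclear lamins A and C. *LMNA* stood at 125, 117 and 140.4 CPM against 32.4 CPM (log2 2.09, SE 0.27, adjusted p = 0.00544). The 5 genes had a median log2 change of 1.70 beside 0.05 over all genes tested, of which 1.5% were called in either direction. The neurofilament genes *NEFL* (7.94, 18.5 and 9.92 against 3.47 CPM, adjusted p = 0.190), *NEFM* (11.7, 15.0 and 14.9 against 4.62 CPM, adjusted p = 0.0939) and *INA* (6.07, 8.20 and 7.83 against 5.78 CPM, adjusted p = 0.630) and the lamin gene *LMNB1* (10.3, 8.88 and 8.61 against 5.78 CPM, adjusted p = 0.388) were not called. *NEFL* was called higher in excitatory neurons, at 27.9, 40.9 and 28.9 CPM against 10.65 CPM (log2 1.74, SE 0.29, adjusted p = 0.00941), a call lost with library size alone as the scaling (adjusted p = 0.0120). *NEFM* was called higher in inhibitory neurons, at 23.2, 33.7 and 30.0 CPM against 9.08 CPM (log2 1.80, SE 0.33, adjusted p = 0.00688).

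Of 16 genes that link, anchor or fold intermediate filaments, 14 were tested in astrocytes and *CRYAB* was called higher, with a median log2 change of 0.40 over the 14. *CRYAB* encodes alpha B-crystallin, a small heat shock protein that binds GFAP and vimentin filaments. It stood at 155, 177 and 78.6 CPM in injured astrocytes against 1.16 CPM from 1 control UMI, a ratio of 119 with a counting interval of 21.3 to 4681 (adjusted p = 0.00623). In oligodendrocytes, which express it widely, it was also called, at 216, 202 and 169 CPM against 54.0 CPM (log2 1.96, adjusted p = 0.00480). Of 12 genes of transcription factors that act on *GFAP*, 8 were tested in astrocytes and 0 were called in edgeR, where 1.5% of all genes were, and their median log2 change was −0.16. An unadjusted p below 0.05 was found for 4 of the 8 factors, for 4 of the 14 linkers and for 30.0% of all genes. Smallest in p were *STAT3*, the factor that carries cytokine signals to the *GFAP* promoter, at 99.0, 131 and 93.4 CPM against 43.9 CPM (log2 1.41, SE 0.30, adjusted p = 0.0273), and *FOS*, part of the AP-1 factor, at 16.8, 11.6 and 15.1 CPM against 1.16 CPM from 1 UMI (adjusted p = 0.0300). No gene of the 3 lists was called in OPC, where 4, 12 and 7 were tested, or in Endo, where 5, 14 and 7 were. An unadjusted p below 0.05 was found for 1, 3 and 3 of them in OPC (19.9% of all genes) and for 2, 8 and 4 in Endo (33.1% of all genes).

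The genes most like each member over the 28 sums of library and cell type differed between the members. For *GFAP* they were *GLIS3*, *EFEMP1* and *RASEF* (Pearson's r of log2(CPM + 1) 0.92, 0.91 and 0.90 among 13770 genes), and for *VIM* they were *PLP2*, *ID3* and *SERPINH1* (0.96, 0.95 and 0.94). For *SYNM* they were *GNAI1* and *CAMK2N1* (both 0.83) and an unnamed gene, ENSCJAG00000033044 (0.80). For *NES*, over the 21 injured sums, they were *CD34*, a surface protein of endothelial cells, ENSCJAG00000000319 and *FOXC1*, a transcription factor of vascular development (all 0.96). *GFAP* and *VIM* had an r of 0.64 and *GFAP* and *SYNM* of −0.13. These sums share libraries and cell types, so the correlations describe the table only, and over the 21 injured sums the leading genes of *GFAP*, *VIM* and *SYNM* were others.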

How the data were processed

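Nuclei from V1 of 3 injured animals and of a pool of 3 control animals were sequenced by droplet single-nucleus RNA sequencing. The authors deposited whole-number counts of UMIs per gene and nucleus, 1 table per cohort, with a cell type and cluster for each nucleus, and both were used as deposited. Per the submitters' processing notes, Cell Ranger 3.1.0 and Seurat were used, and per the study's methods reads were aligned to the calJac3 marmoset assembly. Doublets were removed from the injured cohort by Scrublet and control nuclei were filtered on genes per nucleus, so no further doublet caller was run. Members and gene lists were chosen with earlier results of these data known.

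For each annotated type the UMIs of a library were added up and tested with edgeR 4.0.16 (R 4.3.3; TMM, filterByExpr, quasi-likelihood F-test) over genes listed in both tables, with Benjamini-Hochberg adjustment over all genes tested in a type. Differences between cell types were tested as an interaction with the library as a block. Each injured library came from a separate animal, and p-values measure the spread between these libraries. DESeq2 1.42.0, other scalings, no filter, thinning to 1000 or 500 UMIs, nuclei with at most 2500 genes, missing control genes set to 0, and leaving out each injured library were alternatives. The scripts were tested on simulated data. Intervals (95%, exact Poisson or Clopper-Pearson) and the floor of 3 UMIs cover counting error only, and no fitted fold is given where the control had 3 UMIs or fewer.

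Named were the 4 members, and in astrocytes from each other list up to 4 called genes with the largest change or, with none called, the 2 smallest p, plus neurofilaments and lamins where tested. Likeness was ranked among genes with at least 200 UMIs. The protein, promoter and genome sequences of the members were not used here.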

Additional observations from a re-analysis of the deposited data

Results flagged for a closer look

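The difference in *SYNM* between the injured mean and the control had opposite signs in different cell types, although *SYNM* was called in none of them. All injured libraries lay above the control in Endo, by 20.6 CPM on average, and in microglia, by 1.21 CPM, as in 47.8% and 49.4% of the genes tested there. Both control sums held 0 *SYNM* UMIs, and in microglia a count of 0 still allows 24.1 CPM, so no direction can be read there. In Endo a count of 0 allows up to 14.7 CPM. The Endo mixtures were also unlike, since 155 of 181 control nuclei lay in the fibroblast cluster. Injured *SYNM* was at 1.93 to 3.96 CPM in the fibroblast cluster and at 31.4 to 36.9 CPM in the endothelial clusters. All injured libraries lay below the control in oligodendrocytes (−16.3 CPM), excitatory neurons (−6.15 CPM) and inhibitory neurons (−7.63 CPM), as did 43.5%, 47.5% and 44.9% of the genes tested there. In OPC the mean difference was −11.8 CPM, but the control value rests on only 3 UMIs. In astrocytes the control lay inside the injured range. The difference between OPC and Endo was tested and not called (adjusted p = 0.0873, edgeR), and the other pairs of these 6 types were not tested.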

How the results depend on the processing

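With 1 control library the control value has no replicate check, and depth, sorting and filtering went with the cohort. No called result changed direction. *GFAP* in astrocytes was called in 8 of 10 alternatives, with a log2 change of 1.58 in nuclei with at most 2500 genes and 1.79 to 1.98 when leaving out 1 injured library. *GFAP* in OPC had adjusted p-values of 0.00364 in nuclei with at most 2500 genes, where it was called, and from 5.76e-38 to 0.122 when leaving out 1 library. *VIM* in OPC had 0.00142 with no filter on low counts and from 7.89e-20 to 0.0602 when leaving out 1 library. With a threshold of 0.05 in place of 0.01 the values of 0.0478 and 0.0106 for *GFAP* and *VIM* in OPC passed, as did *VIM* in Endo (log2 3.44). *VIM* in Endo also passed with no filter (3.48), in DESeq2 (3.41), without the cluster led by neither marker list (3.68, added after seeing the data) and when leaving out 1 library (3.00 to 3.68), and was not called with thinned nuclei (2.76, adjusted p = 0.0422), nuclei with at most 2500 genes (3.31, 0.0252), library size alone (3.33, 0.0222), RLE factors (3.40, 0.0142) or unlisted control genes at 0 (3.44, 0.0112). The difference in *GFAP* between astrocytes and OPC had adjusted p-values from 3.38e-07 to 0.112 when leaving out 1 library. Mean injured shares fell with depth, as thinning sets them, to 35.7% at 1000 UMIs and 19.9% at 500 for *GFAP* in astrocytes, 23.7% and 15.9% in OPC (20.4% in nuclei with at most 2500 genes), 12.2% and 6.54% for *VIM* in astrocytes, and 15.9% and 9.71% in OPC. The causes of the changed calls were not tested.

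Counts of called genes ranged over the alternatives from 82 to 716 in astrocytes (187 as reported), 0 to 820 in OPC (8), 422 to 1617 in Endo (816), 48 to 204 in oligodendrocytes (90), 0 to 395 in microglia (0), 77 to 1193 in excitatory neurons (582) and 122 to 1541 in inhibitory neurons (443), and were 891, 136, 1802, 502, 347, 1834 and 1433 at 0.05. Scaling by library size alone lowered the median of all genes by 0.10 to 0.24 log2. No paired analysis was possible for injury because the control is 1 library. The differences between cell types kept the library as a replicate block, and without it no call of a member changed (*GFAP*, astrocytes against OPC, adjusted p = 0.348), while the genes called fell from 12 to 0 for astrocytes against OPC (1113 with an unadjusted p below 0.05, edgeR), from 245 to 108 for astrocytes against Endo and from 57 to 15 for OPC against Endo.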
